A study of Rattus norvegicus with 14 samples.

Results

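The MHC class II genes and Ciita were followed in blood mononuclear cells (lymphocytes and monocytes, separated on a density gradient) on 14 rat expression arrays. Members were chosen by gene symbol: every probe set whose annotation names only RT1-Ba, RT1-Bb, RT1-Da, RT1-Db1, RT1-DMa, RT1-DMb, Cd74 or Ciita. All 8 genes, of 14217 named by the array's annotation, had at least 1 probe set, which gave 14 of the 31042 probe sets on the array that are not controls. A total of 13 passed a filter on low signals (above the array's median on at least 2 of 14 arrays) and were tested among 18515 such probe sets. The remaining one, the second probe set of RT1-Bb (1371065_at), read between 1.64 and 6.01 on the log2 scale and was not tested.

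All rats were female Wistar, of an age not given in the sources used here. Arthritis followed immunisation with bovine type II collagen in adjuvant (CIA, for collagen-induced arthritis), which models the human rheumatoid disease. The groups were MTXMS_A (3 arrays), arthritic rats given mechanical stimulation and methotrexate for 34 days; MS_A (3 arrays), arthritic rats given the stimulation alone for as long; CIA_B (2 arrays), arthritic and not yet treated; NOCIAMS_A (3 arrays), healthy rats stimulated for 34 days; and NOCIA_B (3 arrays), healthy and not yet treated. Mechanical stimulation is the insertion and turning of a thin needle, which the sample labels call acupuncture, and methotrexate is a folate antagonist. No unstimulated group was sampled at day 34, so the passage of time and the therapy cannot be told apart in any comparison of a later with an earlier group.

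MHC class II molecules are pairs of an alpha and a beta chain that carry peptides from ingested material to the cell surface, where CD4+ T cells read them. In blood they are made mainly by B cells, monocytes and dendritic cells. The invariant chain, Cd74, fills the groove of a new pair until it reaches the endosome, and the DM pair then helps to exchange its remnant for a peptide. Ciita, the class II transactivator, does not bind DNA itself. It docks on factors seated at the X, X2 and Y boxes of class II promoters (the RFX complex, CREB and NF-Y), and it is known as the master switch of these genes.

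In the rat, RT1-Ba and RT1-Bb are the chains of the RT1-B molecule (the counterpart of human HLA-DQ), and RT1-Da and RT1-Db1 are those of RT1-D (the counterpart of HLA-DR). RT1-DMa and RT1-DMb form the DM pair. In the RefSeq annotation of the assembly GRCr8, all 6 chain genes lie on chromosome 20, from RT1-Da (chr20:4515393-4520387) through RT1-Db1 (chr20:4550594-4560182), RT1-Ba (chr20:4577057-4581650), RT1-Bb (chr20:4598475-4604118) and RT1-DMb (chr20:4695009-4702560) to RT1-DMa (chr20:4708932-4712335). Cd74 (chr18:56527071-56536406) and Ciita (chr10:5646854-5694393) lie elsewhere.

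The boxes on which Ciita acts can be read in the promoters of the genes themselves, so the stretches that hold them are printed here. RefSeq promoters (250 bases before to 50 after the gene start) were found for 6 of the 8 genes, and RT1-DMb and Ciita had no entry. Letters were searched on both strands: CCTAGNNAC and ACNGATG as the first and second part of the X box, TGACG as the core of the X2 box, and ATTGG and CTGATTGG as the short and the longer form of the Y box. The parts of the X box overlap by 2 letters and the longer Y box holds the short one. Capitals mark every match in these stretches, written 5′ to 3′ along the gene's own strand:
RT1-Da: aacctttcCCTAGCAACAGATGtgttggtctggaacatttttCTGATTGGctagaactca
RT1-Db1: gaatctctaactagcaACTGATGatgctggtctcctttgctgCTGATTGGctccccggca
RT1-Ba: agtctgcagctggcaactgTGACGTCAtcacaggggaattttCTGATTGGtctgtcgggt
RT1-Bb: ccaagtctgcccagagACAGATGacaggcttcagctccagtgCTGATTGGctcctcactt
RT1-DMa: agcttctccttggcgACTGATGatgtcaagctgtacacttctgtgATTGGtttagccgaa
Cd74: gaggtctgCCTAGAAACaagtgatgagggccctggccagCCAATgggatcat

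These stretches are chr20:4515321-4515380 (plus strand), chr20:4560228-4560287 (minus), chr20:4576969-4577028 (plus), chr20:4604165-4604224 (minus), chr20:4712385-4712444 (minus) and chr18:56526978-56527029 (plus) of GRCr8, in the order printed. All 6 promoters held the short Y box, which 37.5% of the 33469 promoters in the table hold. The longer form stood in the 4 classical chain genes RT1-Da, RT1-Db1, RT1-Ba and RT1-Bb, against 3.5% of all promoters. The second part of the X box stood in 4 of the 6 (10.2% of all promoters), its first part in RT1-Da and Cd74 (4.34%), and the X2 core in RT1-Ba alone (21.2%), where the match reads the same on both strands. In Cd74 the Y box runs on the opposite strand, at position -189 from the gene start. The X and Y matches of RT1-Da, RT1-Db1, RT1-Bb and RT1-DMa stood at nearly 1 distance, 30, 29, 29 and 30 bases from first letter to first letter. This spacing was noticed in the members and then counted, and 10 of all promoters (0.0299%) hold such a pair. A match is a run of letters, not a measured binding site.

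**Figure D1:**
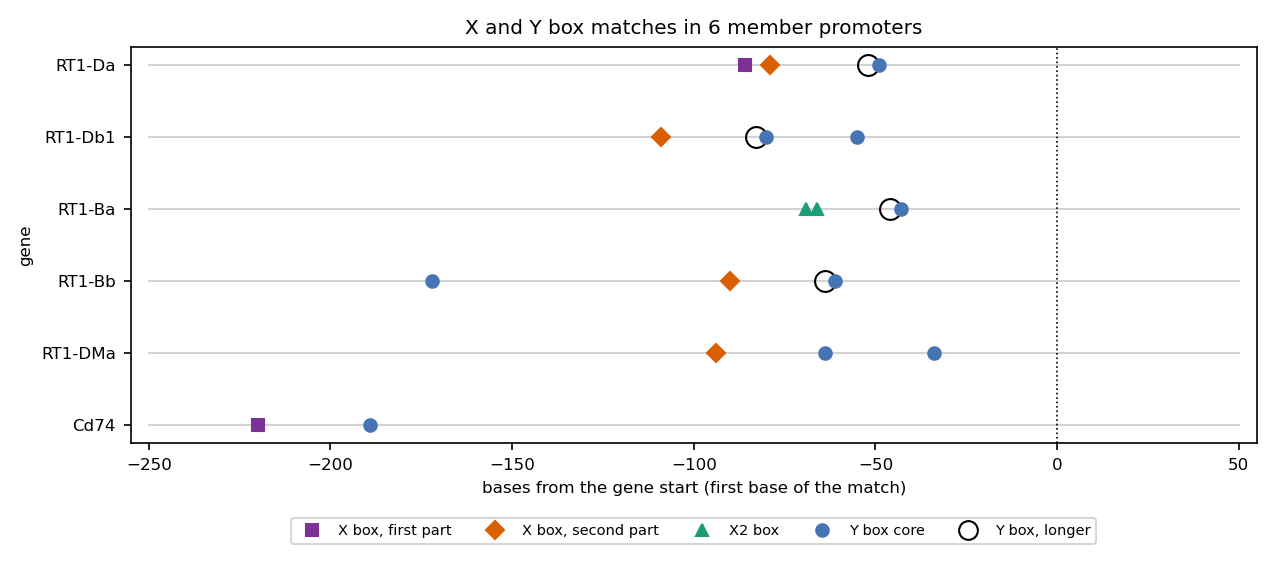
Matches to the X, X2 and Y boxes in the promoters of 6 members, by distance of the first base of the match from the gene start (horizontal axis, bases; both strands). The X and Y matches of RT1-Da, RT1-Db1, RT1-Bb and RT1-DMa stand 29 or 30 bases apart, and those of Cd74 lie farthest from the start, at -220 and -189.

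The arrays carried the markers of mononuclear cells. Across the 14 arrays the log2 signal of Cd3e, a T cell receptor chain, ran from 11.88 to 12.72, that of Cd79b, a B cell receptor chain, from 9.50 to 11.29, and that of Cd14, a monocyte receptor, from 10.03 to 13.17. Median signals per array ran from 104 to 148.6, and, averaged over its correlations with all others, the array least like the rest was NOCIA_B replicate 3 (0.856), followed by MTXMS_A replicate 3 (0.882). RNA comes from a mixture of cells, so fewer cells of a type and less RNA per cell cannot be told apart in any value that follows. A probe set's level depends on its probes, and levels are set side by side only within a probe set.

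No member passed the adjusted threshold (limma, Benjamini-Hochberg adjusted p of 0.05) in any comparison, and neither did any other probe set: 0% of those tested were called in each of the 6 comparisons, in the test of the difference between 2 of them and in the test for any difference among the 5 groups. What follows is therefore a description of values, and no member is said to have changed. At an unadjusted p of 0.05, the test for any difference among the groups picked both probe sets of Ciita and no class II chain, 2 of 13 members, against 7.42% of all tested probe sets. Ciita 1369214_a_at stood at place 76 and Ciita 1379381_at at place 399 of the 18515 by p, with an adjusted p of 0.640 each (limma).

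Among the tested members, Ciita had the widest range of group means. Its probe set 1369214_a_at read 7.02, 7.59 and 6.78 in MTXMS_A rats, 8.26, 8.38 and 8.64 in MS_A rats, 6.75 and 6.45 in CIA_B rats, 7.43, 6.93 and 7.90 in NOCIAMS_A rats and 7.38, 7.44 and 8.43 in NOCIA_B rats (log2 signal). The 3 MS_A rats stood above every array of the other arthritic groups, and the 2 CIA_B rats lay at the bottom of the range. The second probe set, 1379381_at, read 8.53, 8.33 and 8.84 in MTXMS_A rats, 9.67, 9.73 and 9.92 in MS_A rats, 8.79 and 8.69 in CIA_B rats, 9.14, 9.20 and 9.95 in NOCIAMS_A rats and 8.54, 9.69 and 9.41 in NOCIA_B rats. Here too MS_A lay wholly above MTXMS_A and CIA_B, while the healthy groups spread across most of the range. Over the 14 arrays the probe sets of Ciita had a Pearson's r of 0.70 with each other, and of 0.32 after the group means were removed. The suffix of the first marks probes shared by several transcripts of 1 gene.

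Group means put the order of Ciita levels as MS_A (8.43 ± 0.20), NOCIA_B (7.75 ± 0.59), NOCIAMS_A (7.42 ± 0.49), MTXMS_A (7.13 ± 0.42) and CIA_B (6.60 ± 0.21; SD, n = 3 and for CIA_B n = 2) on 1369214_a_at. The second probe set gave MS_A (9.77 ± 0.13), NOCIAMS_A (9.43 ± 0.45), NOCIA_B (9.22 ± 0.60), CIA_B (8.74 ± 0.07) and MTXMS_A (8.57 ± 0.25). The orders share their top, MS_A, and differ below it. Neighbours from NOCIA_B to MTXMS_A on the first probe set, and all neighbours on the second, differed by less than the SD of at least 1 of the pair.

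**Figure D2:**
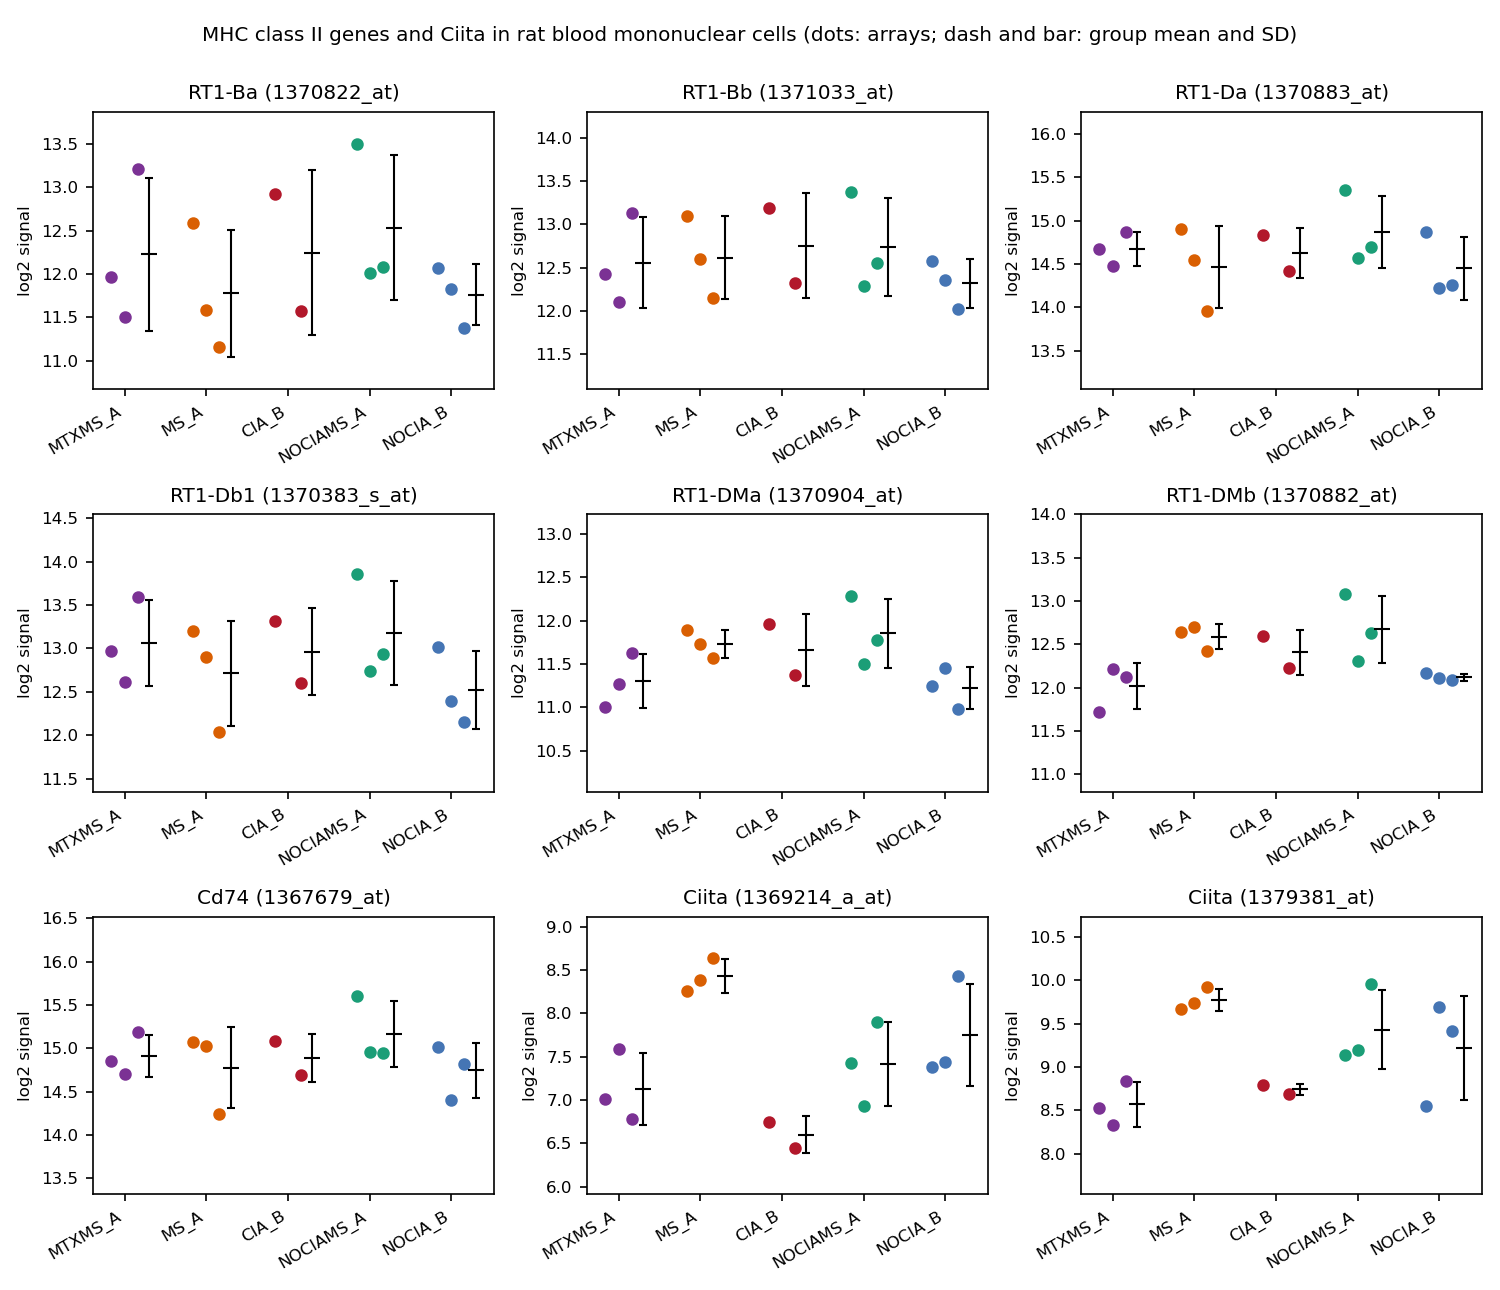
Log2 signal (vertical axis, of equal height in every panel) of 9 member probe sets in the 5 groups; each dot is 1 array, and the dash and bar give the group mean and SD. On both probe sets of Ciita the MS_A arrays lie together above MTXMS_A and CIA_B, while the class II chains and Cd74 overlap between most groups and NOCIAMS_A holds their highest array.

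The classical chains showed a different picture. RT1-Da, the alpha chain of RT1-D, read 14.67, 14.47 and 14.87 in MTXMS_A rats, 14.90, 14.54 and 13.96 in MS_A rats, 14.83 and 14.42 in CIA_B rats, 15.35, 14.57 and 14.69 in NOCIAMS_A rats and 14.87, 14.22 and 14.25 in NOCIA_B rats. All 5 groups overlapped. Its partner RT1-Db1 read 12.97, 12.61 and 13.59 in MTXMS_A rats, 13.20, 12.91 and 12.04 in MS_A rats, 13.32 and 12.61 in CIA_B rats, 13.86, 12.74 and 12.94 in NOCIAMS_A rats and 13.02, 12.40 and 12.15 in NOCIA_B rats (1370383_s_at). The same arrays were high and low as for RT1-Da, with NOCIAMS_A replicate 1 at the top and MS_A replicate 3 at the bottom. The suffix of this probe set marks probes that can also read other transcripts, and RT1-Db1 has a close copy, RT1-Db2, so its values may include both. The second probe set of RT1-Db1, 1370382_at, ranged from 8.52 in CIA_B replicate 2 to 10.30 in NOCIAMS_A replicate 1.

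Of the chains of RT1-B, RT1-Ba (1370822_at) spread more widely within groups than those of RT1-D. The SD within groups of RT1-Bb, pooled over the 5 groups, was 0.49, between those of RT1-Da (0.37) and RT1-Db1 (0.54 on 1370383_s_at). RT1-Ba (1370822_at) read 11.97, 11.50 and 13.21 in MTXMS_A rats, 12.59, 11.58 and 11.16 in MS_A rats, 12.92 and 11.57 in CIA_B rats, 13.50, 12.01 and 12.08 in NOCIAMS_A rats and 12.07, 11.83 and 11.38 in NOCIA_B rats. Its SD within groups, pooled over the 5, was 0.76, which exceeds the gap between any pair of arthritic groups. RT1-Bb (1371033_at) read 12.43, 12.11 and 13.13 in MTXMS_A rats, 13.10, 12.60 and 12.15 in MS_A rats, 13.18 and 12.33 in CIA_B rats, 13.37, 12.29 and 12.56 in NOCIAMS_A rats and 12.58, 12.35 and 12.02 in NOCIA_B rats. The order of its arrays was close to that of RT1-Ba. The other 3 probe sets of RT1-Ba followed the first less closely (r of 0.60, 0.41 and 0.43 for 1377334_at, 1381593_x_at and 1392334_at), and the last 2 of these had dim signals, between 5.15 and 8.42.

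Cd74 read 14.85, 14.71 and 15.18 in MTXMS_A rats, 15.08, 15.02 and 14.24 in MS_A rats, 15.08 and 14.69 in CIA_B rats, 15.60, 14.96 and 14.94 in NOCIAMS_A rats and 15.02, 14.40 and 14.81 in NOCIA_B rats. The invariant chain thus spanned 1.36 log2 units, with the same highest and lowest arrays as RT1-Da. Across the 14 member probe sets, NOCIAMS_A replicate 1 was the highest array in 8, none of them of Ciita, and MS_A replicate 3 the lowest in 5.

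The DM pair had its highest array, NOCIAMS_A replicate 1, in common with the chains. RT1-DMa read 11.01, 11.28 and 11.63 in MTXMS_A rats, 11.90, 11.74 and 11.57 in MS_A rats, 11.96 and 11.37 in CIA_B rats, 12.28, 11.50 and 11.78 in NOCIAMS_A rats and 11.24, 11.45 and 10.98 in NOCIA_B rats. RT1-DMb read 11.72, 12.21 and 12.13 in MTXMS_A rats, 12.64, 12.70 and 12.43 in MS_A rats, 12.59 and 12.22 in CIA_B rats, 13.08, 12.31 and 12.63 in NOCIAMS_A rats and 12.16, 12.11 and 12.09 in NOCIA_B rats. On RT1-DMb the CIA_B and NOCIAMS_A arrays all lay above those of NOCIA_B, and the MTXMS_A arrays lay below those of MS_A and CIA_B. The share of all probe sets without overlap stands with each of these comparisons below.

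The members' spread between rats of 1 group was above the median of the array. The pooled SD within groups had a median of 0.49 over the 13 members tested and 0.39 over all tested probe sets, or 0.29 among the 25% with the highest mean signal. It was lowest for RT1-DMb (0.25) and highest for RT1-Ba 1392334_at (0.94).

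After 34 days of stimulation in arthritic rats (MS_A against CIA_B), Ciita was higher on every array: the log2 fold change was 1.83 ± 0.375 (SE; 95% interval 1.01 to 2.65 on the log2 scale) on 1369214_a_at, a 3.55-fold difference of the means, and 1.03 ± 0.341 on 1379381_at (0.29 to 1.78). Among the 18515 probe sets the first stood at place 5 by p and the second at place 236, both with an adjusted p of 0.616 (limma). At an unadjusted p of 0.05 these were the only 2 of 13 members (background 7.83%), and they were also the only 2 whose arrays did not overlap, against 35.9% of all tested probe sets. Of the class II chains and Cd74, 3 of 11 probe sets were above 0 and 8 below, with a median of -0.16 (all tested probe sets: -0.01) and a range of -1.07 to 0.22. The side of that median depends on single rats: it was 0.11 without CIA_B replicate 1 and 0.09 without MS_A replicate 3 (8 and 7 of 11 above 0), and -0.57 without CIA_B replicate 2.

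Several marker lists lay mostly on 1 side of 0 in this comparison, though no marker passed the adjusted threshold. Of 13 monocyte markers 12 were above 0 (median 0.68), of 11 B cell markers 9 (median 0.37) and of 8 dendritic cell markers 7 (median 0.32). Above 0 too were all 11 platelet markers (median 1.26), against 3 of 15 T cell markers (median -0.43). The monocyte score, the mean of the markers after each was centred over the arrays, ran from 0.23 to 0.89 in MS_A rats and from -0.11 to -0.07 in CIA_B rats. The part of these cells in the Ciita values was not tested.

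With methotrexate added to stimulation (MTXMS_A against MS_A, same day), both probe sets of Ciita were lower on every array, by -1.30 ± 0.335 (adjusted p = 0.188, limma) and -1.21 ± 0.305 (adjusted p = 0.187), which is 0.406 and 0.433 times the MS_A level. RT1-DMb was also lower on every array (-0.57 ± 0.225, adjusted p = 0.287), and RT1-DMa was -0.43 ± 0.259 with overlapping ranges. These 3 probe sets were the members at an unadjusted p of 0.05 (3 of 13, background 14.8%) and also those without overlap (3 of 13, background 22.8%). The other class II chains and Cd74 lay on the opposite side or near 0: RT1-Ba 0.45 ± 0.562, RT1-Da 0.21 ± 0.298, RT1-Db1 0.34 ± 0.409 (1370383_s_at), Cd74 0.14 ± 0.288 and RT1-Bb -0.06 ± 0.378. Over the 11 probe sets without Ciita 8 were above 0, with a median of 0.26 (all tested: -0.01), which was -0.05 without MS_A replicate 3. The value of RT1-DMb was -0.42 without MTXMS_A replicate 1.

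In the same comparison 12 of 13 monocyte markers were below 0 (median -0.93), 7 of them at an unadjusted p of 0.05 (background 14.8%), and 9 of 11 B cell markers (median -0.24). All 10 NK cell markers were below 0 (median -0.87), as were 10 of 11 erythroid markers (median -0.97) and 12 of 15 T cell markers (median -0.17). The 8 dendritic cell markers showed no lean, with 4 above 0 and 4 below (median 0.01). Fcer2, the low-affinity IgE receptor of B cells, was -2.02 ± 0.389 and Ccr2, a chemokine receptor of monocytes, -2.47 ± 0.802 (adjusted p = 0.184 and 0.229, limma). The monocyte score ran from -1.28 to 0.14 in MTXMS_A rats and from 0.23 to 0.89 in MS_A rats, without overlap, and its part in the lower Ciita values was not tested. Against CIA_B, MTXMS_A rats showed no member at an unadjusted p of 0.05 (0 of 13, background 5.4%). The 11 probe sets without Ciita had a median of 0.03 there, which was -0.15 under quantile normalization and -0.04 with array weights, with Ciita at 0.53 ± 0.375 and -0.17 ± 0.341 on its probe sets. The arrays did not overlap for 3 of 13 members, RT1-Ba 1377334_at, RT1-DMb and Ciita 1369214_a_at (background 21.8%). In this comparison all 15 T cell markers were below 0 (median -0.57), 6 of them at an unadjusted p of 0.05. Below 0 too were 9 of 13 monocyte markers (median -0.40). All 11 platelet markers (median 0.80) and 7 of 8 dendritic cell markers (median 0.23) were above 0. The part of these cells in the values was not tested.

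**Figure D3:**
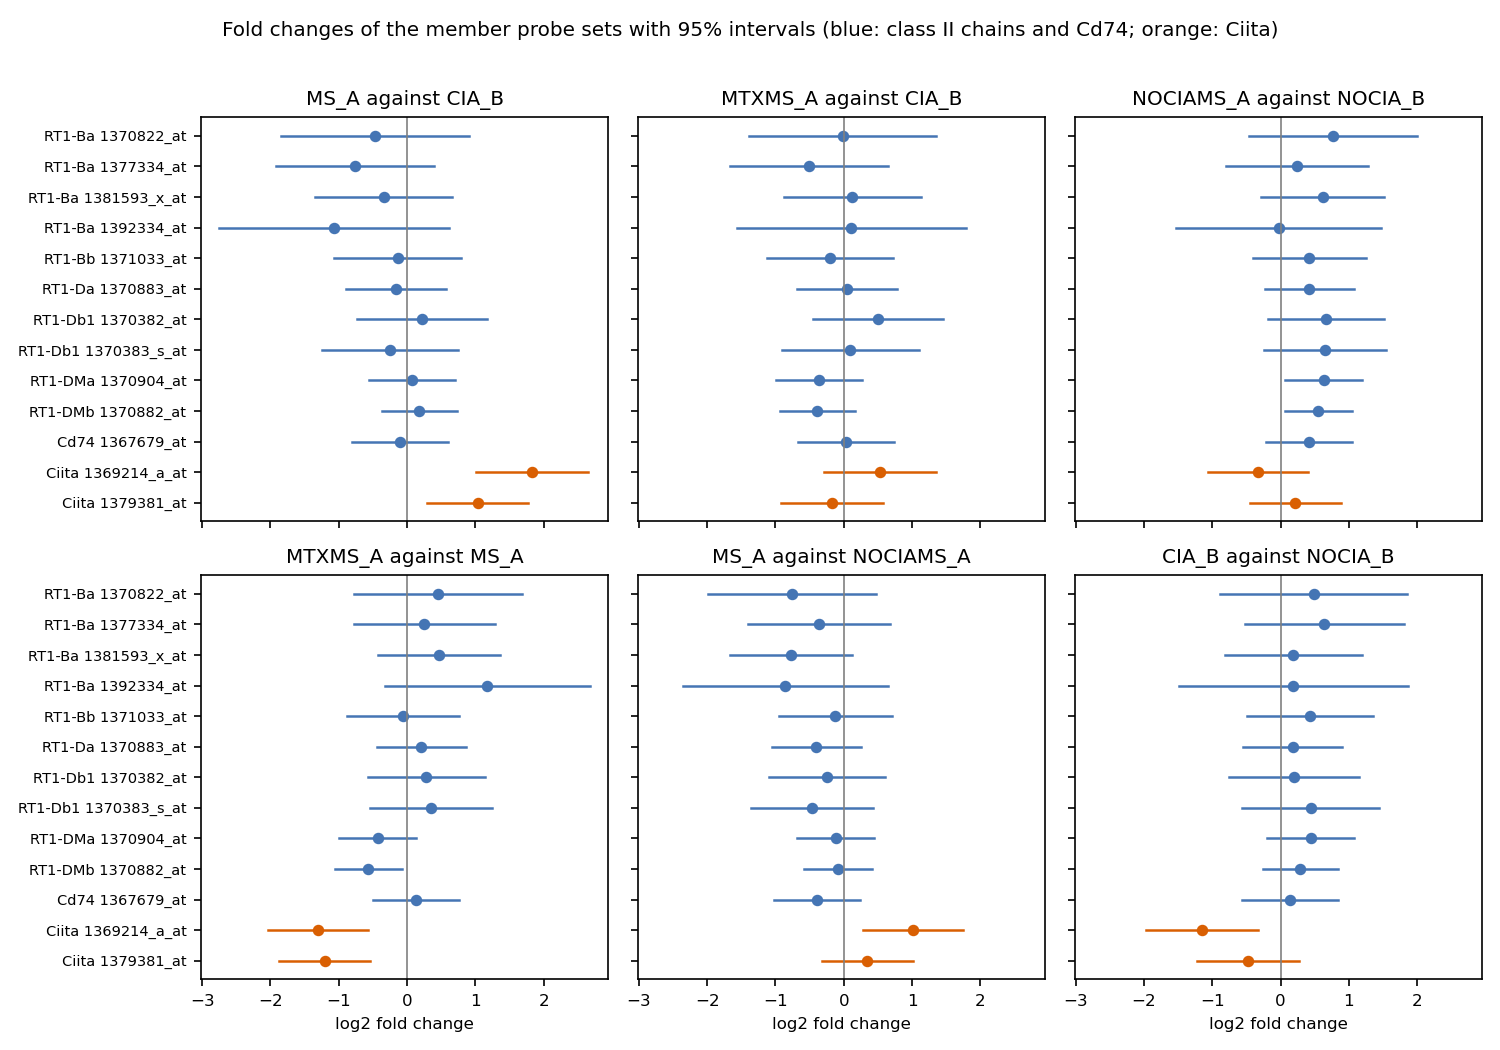
Log2 fold change (horizontal axis) of the 13 tested member probe sets in the 6 comparisons, with 95% intervals from the limma fit; class II chains and Cd74 in blue, Ciita in orange. Ciita lies right of 0 in MS_A against CIA_B (1.83 and 1.03) and left of 0 in MTXMS_A against MS_A (-1.30 and -1.21), where most blue intervals span 0.

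In healthy rats (NOCIAMS_A against NOCIA_B) it was the class II chains that lay on 1 side. Of the 11 probe sets without Ciita 10 were above 0, with a median of 0.55 against 0.09 over all tested probe sets, of which 59.6% were above 0. The DM pair had the narrowest errors: RT1-DMa 0.63 ± 0.259 and RT1-DMb 0.55 ± 0.225 (adjusted p = 0.747 each, limma). They were the 2 of 13 members at an unadjusted p of 0.05 (background 6.18%), and with the dim RT1-Ba 1381593_x_at the 3 of 13 whose arrays did not overlap (background 9.61%). RT1-Ba was 0.77 ± 0.562, RT1-Db1 0.65 ± 0.409 (1370383_s_at), RT1-Da 0.42 ± 0.298, RT1-Bb 0.42 ± 0.378 and Cd74 0.42 ± 0.288. Ciita was -0.33 ± 0.335 and 0.22 ± 0.305. Much of the shift came with 1 rat: without NOCIAMS_A replicate 1, the median of the 11 was 0.29, RT1-DMa 0.42 and RT1-DMb 0.35. Of 11 B cell markers 10 were above 0 (median 0.40), of 13 monocyte markers 12 (median 0.38) and of 8 neutrophil markers 7 (median 0.90). Below 0 were 5 of 8 dendritic cell markers (median -0.73), all 11 platelet markers (median -0.69), all 10 NK cell markers (median -0.30) and 10 of 11 erythroid markers (median -0.75). The part of these cells in the values was not tested.

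The change in arthritic rats was set against that in healthy rats directly, as the difference of MS_A against CIA_B and NOCIAMS_A against NOCIA_B. Ciita 1369214_a_at had a difference of 2.16 ± 0.503 (interval 1.06 to 3.26, adjusted p = 0.360, limma; place 38 of 18515), and 1379381_at one of 0.82 ± 0.458. All 11 other probe sets were negative, from -1.24 to -0.37 with a median of -0.58 (all tested: -0.11, 43.7% of them above 0). Their genes varied together over the arrays, so these signs are not independent. None of the 11 reached an unadjusted p of 0.05. Ciita 1369214_a_at was thus the 1 of 13 members there, against 13.1% of all tested probe sets. It passed the adjusted threshold with arrays weighted by their quality (1.92, adjusted p = 0.0231, limma), where 1651 of 18515 probe sets were called. It also passed when NOCIA_B replicate 1 was left out (2.34, adjusted p = 0.0355, limma), where 980 probe sets were called. Passing in these settings was thus not particular to Ciita. In no other setting tried did it pass, except the thresholds of the study, which use no adjustment. The median of all 13 members was -0.92 without CIA_B replicate 2, against -0.56 with all arrays. All 11 platelet markers were above 0 in this difference (median 2.37), with 10 of 11 erythroid markers (median 1.46) and 7 of 8 dendritic cell markers (median 0.99). Below 0 were 12 of 15 T cell markers (median -0.56) and 7 of 8 neutrophil markers (median -0.98). The part of these cells in the Ciita value was not tested.

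Among the members, arthritic and healthy rats at the same day under stimulation (MS_A against NOCIAMS_A) differed most in Ciita 1369214_a_at. It was 1.01 ± 0.335 there (adjusted p = 0.810, limma, place 215 of 18515 by p), and the second probe set was 0.34 ± 0.305. The first was the 1 of 13 members at an unadjusted p of 0.05 (background 5.68%), and with RT1-Ba 1381593_x_at the 2 of 13 without overlap (background 17.9%). All 11 other probe sets lay below 0, with a median of -0.39 (all tested: -0.05, 44.6% of them above 0). RT1-DMb was nearest to 0 (-0.08 ± 0.225). The count of 11 was 10 with array weights, 9 without MS_A replicate 3 and 7 without NOCIAMS_A replicate 1, and both of these arrays moved the median to -0.12 when left out. Before therapy (CIA_B against NOCIA_B) the signs were turned round: Ciita was -1.15 ± 0.375 on 1369214_a_at (adjusted p = 0.583, limma) and -0.48 ± 0.341 on 1379381_at. All 11 other probe sets lay above 0 (median 0.29), against 55.5% of all tested probe sets (median 0.07). Ciita 1369214_a_at was the 1 of 13 members at an unadjusted p of 0.05 (background 8.47%), and with RT1-DMb the 2 of 13 without overlap (background 21%). The count of 11 was 10 with array weights, with the replicate number as a block or without NOCIA_B replicate 2, 9 without NOCIA_B replicate 3 and 6 without CIA_B replicate 1. Their median was 0.01 without CIA_B replicate 1, 0.18 without NOCIA_B replicate 3, 0.45 without NOCIA_B replicate 1 and 0.56 without CIA_B replicate 2. Cell markers also lay to 1 side in these comparisons. In MS_A against NOCIAMS_A all 10 NK cell markers were above 0 (median 0.87, 4 of them at an unadjusted p of 0.05). So were 11 of 13 monocyte markers (median 0.37), 10 of 11 platelet markers (median 0.72) and 7 of 8 dendritic cell markers (median 0.30). Of 15 T cell markers 10 were below 0 (median -0.24). In CIA_B against NOCIA_B all 11 platelet markers (median -1.65, 8 at an unadjusted p of 0.05) and all 11 erythroid markers (median -1.36) were below 0. Below 0 too were 5 of 8 dendritic cell markers (median -0.69), while 14 of 15 T cell markers were above it (median 0.39). Their part in the Ciita values was not tested. These comparisons share arrays with those above, so their values are not independent of them.

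Over the 14 arrays the 7 members other than Ciita varied together. Their 21 pairs had a Pearson's r of 0.43 to 0.96 (median 0.79), and 0.57 to 0.99 after the group means were removed, so the likeness is also found among rats of 1 group. When the few arrays farthest from the median of 1 gene of the pair were left out, some values fell. RT1-DMb then had 0.28 to 0.31 with the classical chains and Cd74. RT1-Da with RT1-Db1 stayed at 0.92 and RT1-DMa with RT1-DMb at 0.88. Partners of 1 molecule had an r of 0.96 (RT1-Da with RT1-Db1), 0.94 (RT1-Ba with RT1-Bb) and 0.91 (RT1-DMa with RT1-DMb). Pairs from different molecules lay in the same range, RT1-Ba with RT1-Db1 at 0.93 and RT1-Bb with RT1-Db1 at 0.92, and RT1-Da had an r of 0.94 with Cd74. The DM pair stood farther from the classical chains (0.43 to 0.79). With the group means removed, RT1-DMa had 0.66 to 0.87 with these chains and RT1-DMb 0.615 to 0.66. Correlations with Ciita here and below use 1379381_at, and 1369214_a_at entered none of them. Ciita had an r of -0.31 to 0.44 with the other 7 (median -0.18), highest with RT1-DMb. After the group means were removed these ran from -0.47 to 0.06, with RT1-DMb at -0.13. These values are descriptions, since the arrays share groups and a common scaling.

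**Figure D4:**
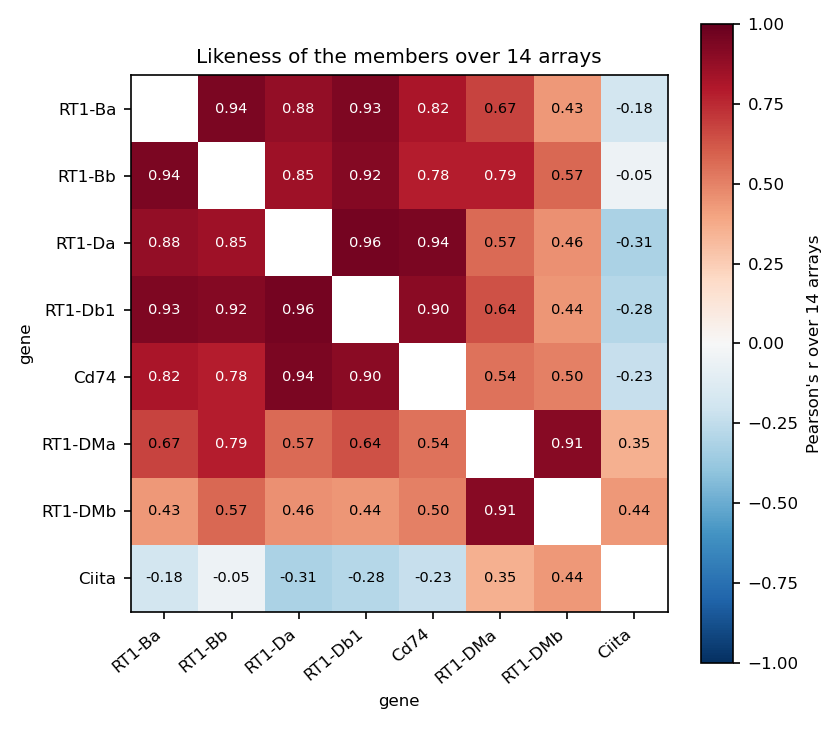
Pearson's r between the log2 signals of the 8 members (for each gene the probe set of highest mean) over 14 arrays, on a colour scale from -1 to 1. The chains of RT1-B and RT1-D and Cd74 form a block with r of 0.78 to 0.96, the DM pair forms a second (0.91), and the Ciita row runs from -0.31 to 0.44.

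Each course was set beside the marker scores of the cells that present antigen. The mean of the 7 class II members had an r of 0.77 with the B cell score (11 genes), 0.84 after the group means were removed, and of -0.04 with the monocyte score (13 genes). For Ciita the order was the other way: 0.75 with the monocyte score and 0.41 with the B cell score, or 0.57 and 0.12 after the group means were removed. The dendritic cell score (8 genes) had an r of 0.44 with Ciita, 0.76 after the group means were removed, and of -0.39 with the class II mean (-0.19). The B cell score was 0.54 in NOCIAMS_A replicate 1, whose class II mean was the highest (0.86), and -0.40 in MS_A replicate 3, whose class II mean was the lowest (-0.49). Neither was an extreme of the B cell score, which ran from -0.73 in MTXMS_A replicate 1 to 0.63 in MS_A replicate 1. In MS_A replicate 3 the monocyte score (0.89) was the highest of all arrays and Ciita stood at the top of its group. The difference between these correlations was not tested. Platelet markers ran against the class II mean (r of -0.65).

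**Figure D5:**
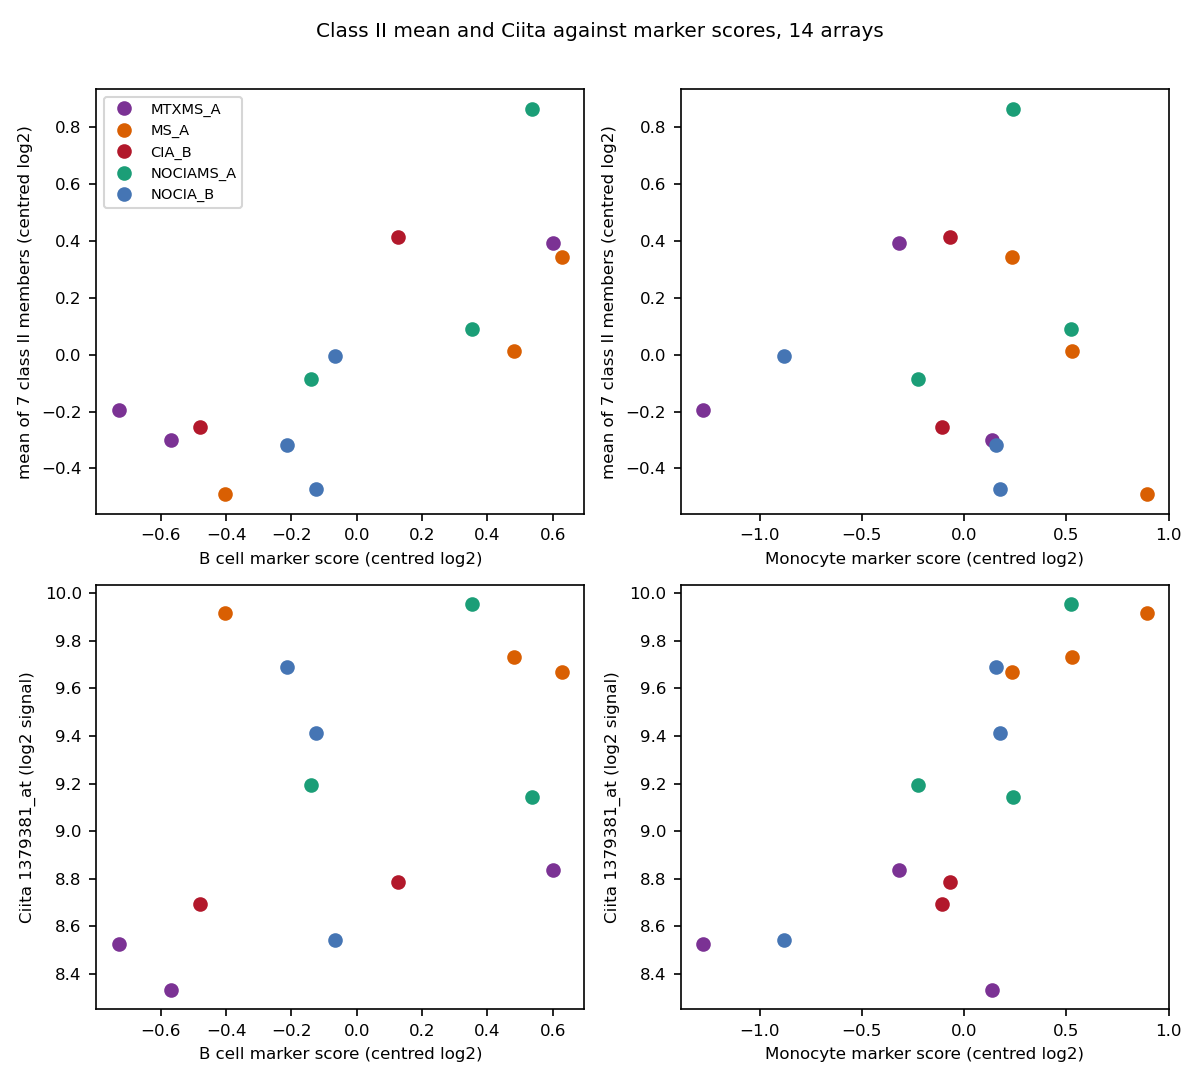
Mean of the 7 class II members (top row, centred log2) and Ciita 1379381_at (bottom row, log2 signal) against the B cell score (left) and the monocyte score (right), 1 point per array, coloured by group. The class II mean climbs with the B cell score (r of 0.77) and shows no slope on the monocyte score (r of -0.04); the plotted Ciita probe set is high on arrays with a high monocyte score.

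Genes were then ranked by likeness to the mean course of all 8 members among 10080 genes. The 10 closest were Smim14 (r of 0.93), Pde6h, Vav2, Bank1, Ttpal, B3gnt5, Syngr2, Ighvl1, Rassf2 and Fgd2 (0.88). Bank1 is a scaffold protein of B cell receptor signalling and one of the B cell markers above. The same ranking for Ciita alone, added after its course was seen, began with Bcl11a (0.94), a transcription factor of lymphoid cells, Septin10 (0.91) and Selenon (0.90).

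Other genes of the pathway were read from lists, and none passed the adjusted threshold. Among 20 regulators of class II transcription, 5 reached an unadjusted p of 0.05 in MTXMS_A against MS_A (background 14.8%). Bcl6, a repressor of germinal centre B cells, was higher at 0.94 ± 0.251, with 1 other gene on that side. Creb1, which binds the X2 box, was lower at -1.23 ± 0.369. So were Jak2, a kinase of the interferon gamma receptor, at -0.67 ± 0.243, and Irf2, an interferon regulatory factor, at -0.68 ± 0.283. The list's median there was -0.01, as for all tested probe sets. In MS_A against CIA_B none of the 20 reached that level, and the median was 0.02 (all tested: -0.01).

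The list of class II processing and traffic leaned towards the side of Ciita where MS_A was set against CIA_B or MTXMS_A. In MS_A against CIA_B 15 of 17 genes were above 0 (median 0.41, all tested -0.01), none of them at an unadjusted p of 0.05; Cst3, an inhibitor of cathepsins, was 0.78 ± 0.405 and Ctsh, a cathepsin, 0.60 ± 0.350. In MTXMS_A against MS_A 12 of 17 were below 0 (median -0.27), with Marchf1, a ubiquitin ligase that removes class II molecules from the surface, at -1.18 ± 0.536. In healthy rats (NOCIAMS_A against NOCIA_B) the list showed no lean, with 11 of 17 above 0 and a median of 0.09, as over all tested. There 2 of the 17 reached an unadjusted p of 0.05 (background 6.18%). These were Ifi30, the lysosomal thiol reductase that unfolds antigens, at 0.67 ± 0.205, and Ap1m1, an adaptor subunit of vesicle traffic, at 0.62 ± 0.223. Marchf8 was -0.66 ± 0.415. Over the arrays the list's score had an r of 0.69 with Ciita and -0.33 with the mean of the class II members.

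Costimulatory genes of presenting cells followed the chains instead. The 4 tested genes, Cd40, Cd83, Cd86 and Tnfsf9, had a score with an r of 0.86 with the class II mean, 0.97 after the group means were removed, and of -0.42 with Ciita. Cd40, through which T cells activate B cells, was 0.96 ± 0.538 in NOCIAMS_A against NOCIA_B and 0.87 ± 0.538 in MTXMS_A against MS_A. The MHC class I pathway (21 genes) was higher in CIA_B than in NOCIA_B for 16 genes (median 0.40, all tested 0.07), 5 of them at an unadjusted p of 0.05 (background 8.47%), among them Tap2, a peptide transporter, at 0.67 ± 0.170 and Nlrc5, the class I counterpart of Ciita, at 0.89 ± 0.279. Nlrc5 and Ciita thus lay on opposite sides of 0 in CIA_B against NOCIA_B, and also in MS_A against CIA_B, where Nlrc5 was -0.64 ± 0.279. Both comparisons use the same CIA_B arrays, with opposite sign, so the second is no independent observation. On the side of CD4+ T cells, a list of 8 genes had 6 below 0 in MS_A against CIA_B (median -0.41) and 7 above 0 in CIA_B against NOCIA_B (median 0.33). Cd4, the receptor for class II molecules, which rat monocytes also carry, lay on the other side of the list in both. It was 1.87 ± 0.778 and -1.72 ± 0.778 (adjusted p = 0.616 and 0.583, limma), and the shared CIA_B arrays enter here too.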

How the data were processed

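Gene expression in rat mononuclear cells was measured on 14 Affymetrix arrays. The authors summarised each probe set as a linear MAS5 intensity with the affy package (version not given in the sources used here), and the deposited arrays share a common trimmed mean. Without counts or detection calls, precision is limited by the number of arrays. Signals were turned to log2 without a pseudocount. Probe sets were named by the platform's annotation (20826 with 1 symbol, 436 with several, 9780 with none), and control probe sets (57) were left out.

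Groups come from the sample titles, read here as the study's group codes. A linear model with 1 mean per group was fitted to all 14 arrays (limma 3.58.1, R 4.3.3) and moderated by empirical Bayes. Tests are two-sided, adjusted over 18515 probe sets, and called at 0.05. Replicates are separate rats. For each gene, correlations use its probe set of highest mean.

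All member probe sets are named; from each list, up to 4 genes per comparison with the lowest p, and the 10 genes most like the members. Members and lists were chosen with earlier results of these data known. The ranking by likeness to Ciita and the motif spacing were added after values were seen. The fit was tested on simulated data. Alternatives were no filter, a pseudocount of 16, quantile normalization, no moderation, a mean-variance trend, array weights, the study's own thresholds (fold of 2, unadjusted p of 0.05), the replicate number as a block, and each array left out.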

Additional observations from a re-analysis of the deposited data

How the results depend on the processing

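The calls stayed at 0 in every comparison with the pseudocount, with quantile normalization and with the replicate number as a block (0 probe sets called in each comparison in the block fit). Replicate numbers mark no shared animal, since by the paper's account rats were killed once their blood was drawn. Correlations of deviations from the group means had a median of 0.06 for arrays of the same number and -0.04 for others. By this measure 3 of 14 arrays were closest to their own number. These values alone cannot show whether animals are shared. Without the filter MS_A against CIA_B had 1 call. Without moderation there were 5 in MTXMS_A against MS_A, 1 in MS_A against NOCIAMS_A and 3 for any difference among the groups; a mean-variance trend gave 1 in MTXMS_A against MS_A. Array weights gave 765 in CIA_B against NOCIA_B, 1 in NOCIAMS_A against NOCIA_B, 2 in MTXMS_A against MS_A and 1651 in the difference between comparisons, Ciita 1369214_a_at (1.92) among the last; the cause was not tested. By construction the thresholds of the study, without adjustment, passed 866 in CIA_B against NOCIA_B, 670 in MS_A against CIA_B, 423 in MTXMS_A against CIA_B, 426 in NOCIAMS_A against NOCIA_B, 833 in MTXMS_A against MS_A, 347 in MS_A against NOCIAMS_A, 1886 in the difference and 1373 for any difference.

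With 1 array left out, calls ran from 0 to 168 in CIA_B against NOCIA_B (168 without NOCIA_B replicate 1, 15 without CIA_B replicate 1), 0 to 4 in MS_A against CIA_B, 0 to 13 in MTXMS_A against CIA_B (13 without CIA_B replicate 1), 0 to 4 in NOCIAMS_A against NOCIA_B, 0 to 1 in MTXMS_A against MS_A, 0 to 0 in MS_A against NOCIAMS_A, 0 to 980 in the difference (980 without NOCIA_B replicate 1) and 0 to 1 for any difference. Where 1 array was left of CIA_B, it was assumed to vary like the other groups. The median of the 13 members ran from -0.03 to 0.47, -0.36 to 0.21, -0.22 to 0.23, 0.29 to 0.60, -0.13 to 0.31 and -0.54 to -0.08 in these 6 comparisons and from -0.92 to -0.33 in the difference. Ciita 1369214_a_at ran from 1.68 to 1.98 in MS_A against CIA_B and from -1.53 to -1.13 in MTXMS_A against MS_A. Under quantile normalization the median of the 11 probe sets without Ciita in MTXMS_A against CIA_B was -0.15, against 0.03, and in CIA_B against NOCIA_B 0.52, against 0.29; in the difference it was -0.96, against -0.58. Of the 91 log2 fold changes of single members, 12 changed sign in a setting with all arrays (none larger than 0.64) and 38 with an array left out (none larger than 0.51); none was a Ciita value at an unadjusted p of 0.05. Groups of 2 and 3 rats limit what could be detected.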
